A study of Mus musculus with 28 samples.

Results

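The contacts described here lie at the histone gene cluster of mouse chromosome 13. They are pairs of HindIII restriction fragments from promoter capture Hi-C (PCHi-C) in which at least 1 fragment has its midpoint between 21.6 and 23.9 Mb of chromosome 13 in the mm10 genome. Where 4 values follow each other, they are for 0h, 1h, 12h and 48h in this order. The window held 630, 517, 390 and 467 listed contacts, of 138769, 137836, 131598 and 144072 in the whole lists. In all, 1077 different contacts were listed in the window at 1 or more of the times, of 273644 in the series. The choice used position alone.

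The cells were C10, a mouse Pre-B cell line derived from HAFTL cells, and every group carries the CEBPalpha-ER transgene, a fusion of the transcription factor C/EBPα with the estrogen receptor. Differentiation was induced with 100 nM β-estradiol, 10 nM IL-3 and CSF-1, and cells were taken before induction (0h) and 1h, 12h and 48h after it. PCHi-C had 2 replicates at each time, merged by the authors into 1 list, so contact counts have no spread between replicates and no test below. RNA-seq had 3 biological replicates at each time. All groups are a single cell line.

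Replication-dependent histones are made in S phase, when new DNA is packed into nucleosomes. Their genes lie in clusters, mostly lack introns, and give mRNAs that end in a stem-loop rather than a poly(A) tail. H2A, H2B, H3 and H4 form the core of the nucleosome, and H1 binds the DNA between cores. The genes gather at a nuclear structure called the histone locus body, where factors for their transcription and mRNA processing are concentrated.

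In the GENCODE M21 annotation, 53 Hist1 genes start in the window, with Hist1h2aj, an unprocessed pseudogene, counted among them. They fall into group 1 with 24 genes (chr13:21715763-22043676) and group 2 with 29 genes (chr13:23531050-23764406), with a gap of 1487 kb between them. For the contacts, each group reached 50 kb beyond its outermost Hist1 genes. The stretch between the groups, called the middle here, holds 95 genes, of which 66 are Vmn1r genes for pheromone receptors. RefSeq places 79 tRNA genes in the window, with 34 in group 1, 31 in the middle and 14 in group 2. Of the fragments in the window, 54 were baits, the fragments that the capture targets, and 24 of these held a Hist1 start.

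The sequences below come from RefSeq (GRCm38.p6, the build of mm10). They are the 160 bases before the start of the gene with the highest RNA level at 0h in each histone family, shown because these promoters carry the shared motifs counted next. Capitals mark the searched motifs, on either strand.
Hist1h1a (chr13:23763508-23763667, plus strand): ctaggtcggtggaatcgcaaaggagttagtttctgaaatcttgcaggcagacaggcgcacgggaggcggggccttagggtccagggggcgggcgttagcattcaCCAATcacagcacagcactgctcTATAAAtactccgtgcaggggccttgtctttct
Hist1h2ah (chr13:22035644-22035803, minus strand): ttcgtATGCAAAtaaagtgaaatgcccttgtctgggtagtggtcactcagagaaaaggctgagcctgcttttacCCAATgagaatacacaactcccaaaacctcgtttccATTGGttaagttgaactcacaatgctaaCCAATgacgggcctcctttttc
Hist1h2bl (chr13:21716184-21716343, minus strand): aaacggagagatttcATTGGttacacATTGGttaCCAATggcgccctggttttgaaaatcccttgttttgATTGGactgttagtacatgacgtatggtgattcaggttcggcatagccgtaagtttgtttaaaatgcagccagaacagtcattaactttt
Hist1h3h (chr13:21717468-21717627, plus strand): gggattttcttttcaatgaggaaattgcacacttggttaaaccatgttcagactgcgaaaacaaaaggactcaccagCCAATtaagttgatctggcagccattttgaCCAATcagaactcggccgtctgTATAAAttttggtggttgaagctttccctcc
Hist1h4k (chr13:21750554-21750713, minus strand): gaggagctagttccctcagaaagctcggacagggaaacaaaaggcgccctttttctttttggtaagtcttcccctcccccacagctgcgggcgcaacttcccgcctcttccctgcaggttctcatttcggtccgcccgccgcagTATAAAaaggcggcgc

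A promoter entry was found for 49 of the 53 genes, and 250 bases before each start were searched. The motif CCAAT was in 41 of the 49 (83.7%), against 33.8% of 32851 promoters in the genome. All 6 H1, 12 H2A, 13 H2B and 7 H3 promoters held it, and 3 of 11 H4 promoters did. The motif TATAAA was in 24 of the 49 (49.0%), against 12.4%. The H1 box, searched as AAACACA, was in 5 of 6 H1 promoters and in 6.25% of all. Part of the octamer of H2B promoters, searched as TTTGCAT, was in 4 of 13 H2B and 4 of 12 H2A promoters, against 4.12%. No motif overlapped another in the 49. There are 11 divergent H2A and H2B pairs whose starts lie 176 to 302 bases apart, so many of these promoters cover the same bases.

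The window took a smaller part of the lists after induction. It held 45.4, 37.5, 29.6 and 32.4 contacts per 10000 listed, with 95% Wilson intervals of 42.0 to 49.1, 34.4 to 40.9, 26.8 to 32.7 and 29.6 to 35.5. The 0h interval lies above all later ones. Intervals here cover counting error only. Relative to 0h the window held 0.821, 0.619 and 0.741 times as many contacts at the later times, while the whole lists were at 0.993, 0.948 and 1.04. Among 725 stretches of the same length with at least 50 contacts at 0h, the share with a ratio as low as the window's was 25.2% for 1h, 5.24% for 12h and 13.2% for 48h.

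Both histone gene groups held fewest contacts at 12h, and group 1 held more again at 48h. Within group 1 the lists held 83, 64, 32 and 71 contacts. Within group 2 they held 183, 122, 109 and 126. Contacts with a Hist1 start on both fragments numbered 76, 43, 37 and 64, and those with none on either numbered 275, 256, 179 and 193. By RefSeq starts, which move Hist1h1d and Hist1h4b to another fragment each, the first set held 96, 54, 46 and 83. With GENCODE starts the sets at 48h stood at 0.842 and 0.702 times their 0h numbers. From group 2 to chromosome 13 outside the window there were 99, 73, 43 and 52 contacts, and from group 1 to the middle 45, 51, 29 and 23. The edges of the window beyond the groups had 45, 42, 49 and 53 contacts to the outside, with the lowest number at 1h.

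**Figure D1:**
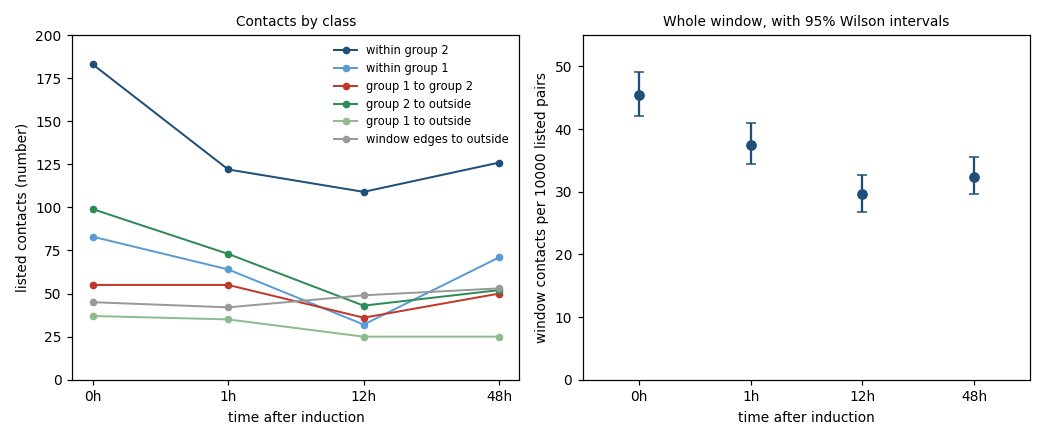
Left, number of listed contacts (y axis) in 6 classes at each time after induction (x axis), as points joined by lines. Contacts within group 1 (light blue) are at 32 at 12h and 71 at 48h, and those of the window edges (grey) end at 53. Right, window contacts per 10000 listed pairs with 95% Wilson intervals, of which the 0h interval is above the other 3.

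Contacts between the groups reached across the pheromone receptor genes. There were 55, 55, 36 and 50 of them, or 108 different ones, at distances of 1460 to 2040 kb. They made up 8.73%, 10.6%, 9.23% and 10.7% of window contacts, with intervals of 6.77 to 11.2, 8.26 to 13.6, 6.74 to 12.5 and 8.22 to 13.8, which overlap. Without the 50 kb margin these shares were 3.49%, 2.51%, 1.79% and 5.57%. The bait with the starts of Hist1h4h, Hist1h2af and Hist1h3g then falls outside group 2, as does that of Btn2a2. Fragments are placed by their midpoints, and both midpoints lie below the first Hist1 base of that group. In stricter lists, kept by score at 0h and by read pairs later, the shares between the groups were 12.7% at 0h and 0% afterwards. The later contacts between the groups have at most 13 read pairs. These cuts are unlike, so the stricter 0h and later shares cannot be compared. Over all chromosomes the lists held 672, 527, 285 and 421 contacts in that distance range, and those between the groups were 8.18%, 10.4%, 12.6% and 11.9% of them. Of the window contacts within chromosome 13, 18.2%, 22.9%, 18.2% and 20.3% were longer than 1 Mb, against 2.05%, 1.69%, 0.91% and 1.20% in the series.

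**Figure D2:**
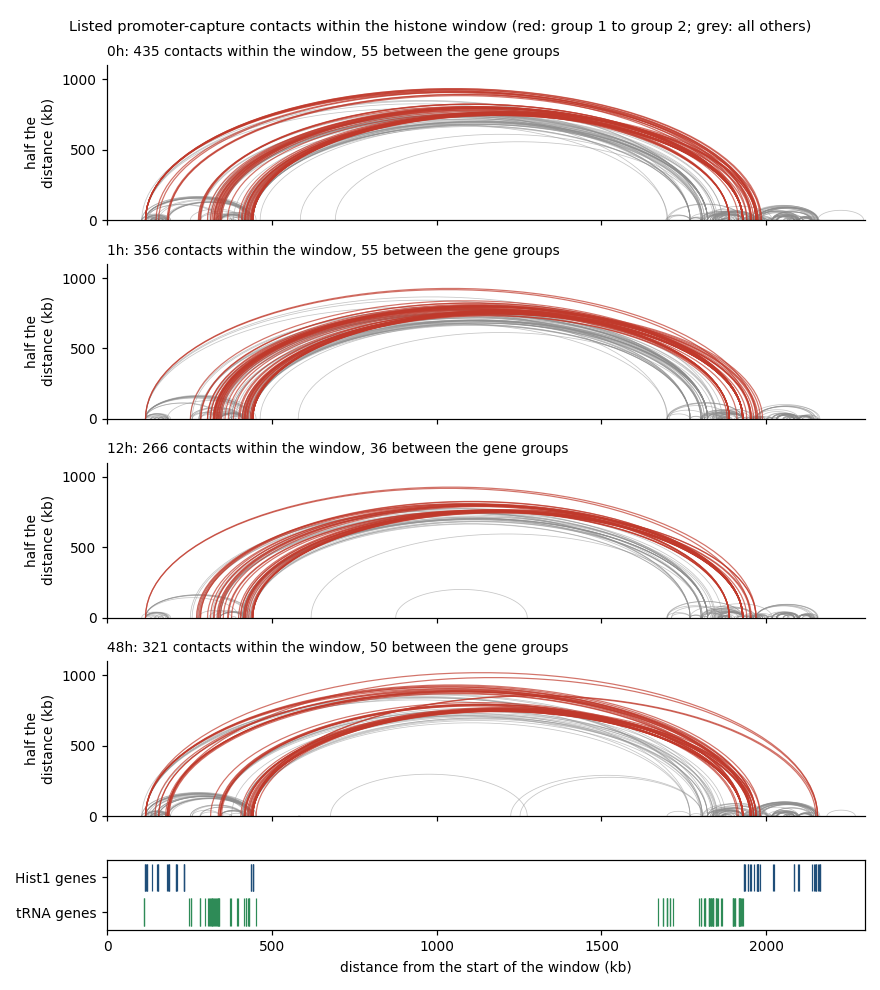
Contacts within the window at each time, drawn as arcs over the distance from the window start in kb (x axis), with a height that scales with the distance between the fragments (y axis, kb). Red arcs, of which there are 55, 55, 36 and 50, join group 1 and group 2, grey arcs are all other contacts, and the ticks at the bottom mark Hist1 genes (blue) and tRNA genes (green).

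A single bait of group 2 was in many contacts between the groups. It holds the starts of Hist1h4h, Hist1h2af and Hist1h3g and 7 tRNA genes (chr13:23517430-23540001), and it was in 26, 28, 22 and 21 of them (47.3%, 50.9%, 61.1% and 42.0%). The bait of Btn2a2, a butyrophilin gene beside group 2, was in 6, 12, 7 and 0. Its contacts of any kind numbered 13, 25, 15 and 2, so few of them were listed at 48h. At 48h the 0 of 50 has an upper Wilson limit of 7.13%. In group 1, 57 of the 74 listed fragments touched group 2, and in group 2, 19 of 100 touched group 1. The 57 include 19 fragments with tRNA genes and 8 with Hist1 starts. All 74 include 23 and 9, so the shares in the 57 are close to those in all listed fragments of group 1. The bait of Btn2a2 and these counts were chosen after their values were seen.

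The group 1 fragment of these contacts held a Hist1 start in 19, 13, 7 and 24 contacts, or 34.5%, 23.6%, 19.4% and 48.0%. The intervals were 23.4 to 47.7, 14.4 to 36.3, 9.75 to 35.0 and 34.8 to 61.5, and those of all times overlap, at 12h and 48h barely. A tRNA gene lay on it in 17, 19, 13 and 11 contacts, or 30.9%, 34.5%, 36.1% and 22.0%, with intervals of 20.3 to 44.0, 23.4 to 47.7, 22.5 to 52.4 and 12.8 to 35.2, which overlap too. Hist1 starts lay on both fragments in 13, 9, 5 and 17, or 15, 10, 6 and 23 by RefSeq starts.

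Of the 13 contacts between the groups listed at all 4 times, the highest 0h score joined the bait of Hist1h4h to a fragment with the serine tRNA gene n-TScga1 (chr13:22022409-22026494). Its CHiCAGO score, which rises as read pairs exceed the number expected for the distance, was 29.71 at 0h. It had 9, 8 and 8 read pairs at the induced times. The bait carries 7 tRNA genes, among them the serine genes n-TStga1 and n-TSgct4. The genes n-TScga1 and n-TStga1, of 82 bases, are printed because they lie on the joined fragments. Capitals mark the 15 positions that differ (67 identical, 81.7%). Identity with the other tRNA genes of the bait was not measured.
n-TScga1 (chr13:22022419-22022500, minus strand): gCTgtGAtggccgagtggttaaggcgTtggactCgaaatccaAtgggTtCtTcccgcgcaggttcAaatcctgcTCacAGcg
n-TStga1 (chr13:23518146-23518227, plus strand): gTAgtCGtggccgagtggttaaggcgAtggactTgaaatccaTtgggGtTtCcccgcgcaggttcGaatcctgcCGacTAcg

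The contact with the next score joined histone genes to histone genes. The bait of Hist1h2ai and Hist1h2bl (chr13:21715488-21717615), at the outer end of group 1, met the bait of Hist1h2ae (chr13:23566617-23571375) over 1850 kb, with a score of 27.6 and 4, 4 and 7 read pairs. The Hist1h2bl sequence above lies on that first bait. The bases before Hist1h2ae hold 3 of the 4 motifs, and those before Hist1h4h, on the bait with tRNA genes, hold none of them.
Hist1h2ae (chr13:23571221-23571380, minus strand): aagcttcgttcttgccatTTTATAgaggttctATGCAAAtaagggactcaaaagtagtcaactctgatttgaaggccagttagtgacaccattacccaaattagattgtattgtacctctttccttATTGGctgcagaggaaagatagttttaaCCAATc
Hist1h4h (chr13:23530884-23531043, plus strand): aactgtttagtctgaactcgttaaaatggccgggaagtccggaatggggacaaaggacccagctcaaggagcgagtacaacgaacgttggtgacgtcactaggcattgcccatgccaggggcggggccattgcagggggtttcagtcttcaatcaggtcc
The fragments with the tRNA genes n-TSaga1 and n-TDgtc12, for serine and aspartate, met the Hist1h4h bait with scores of 23.49 and 20.07. They had 7, 4 and 5 and 8, 5 and 6 read pairs. The fifth contact joined the bait of Hist1h2ag and Hist1h4i (chr13:22040810-22043145) to a bait (chr13:23554552-23555079) that holds no GENCODE start but the RefSeq start of the H1 gene Hist1h1d, at base 23555032, with a score of 19.72 and 7, 5 and 13 read pairs. All 5 rest on few read pairs.

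Histone genes are repeated, so the share of the 50-base words of a fragment that occur again in the window was taken as a measure of uniqueness. The median was 0.464% over the 76 fragments in contacts between the groups and 0.0826% over all 239 listed fragments of the window. It was 7.81% over the 27 fragments with a Hist1 start. Among the joined fragments the bait of Hist1h2bl was at 28.1%, that of Hist1h2ae at 6.01%, the n-TScga1 fragment at 0.495% and the Hist1h4h bait at 4.17%. The part of such words in the contacts was not tested.

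Contacts of 0h were listed again less often in the window than in the series. The shares listed again at 1h, 12h and 48h were 48.4%, 40.3% and 44.4% of 630, against 57.6%, 53.2% and 55.9% of all 0h contacts. The highest window limit was 52.3%, so the intervals of the window lie below the series at each time. The 2 sets are not matched for distance. At 0h, 18.2% of window contacts within chromosome 13 were longer than 1 Mb, against 2.05% in the series. The part of distance in the lower shares was not tested. Within group 1 the shares were 50.6%, 32.5% and 59.0%, and within group 2 they were 55.2%, 48.1% and 49.2%. Accepting any listed contact with both fragments within 10 kb gave 89.2%, 81.7% and 87.0% for the window. No series share under this rule is given here, so window and series cannot be compared under it.

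Contacts between the groups were listed again more often than other contacts of that length. Of the 55 at 0h, 52.7%, 45.5% and 43.6% were listed at 1h, 12h and 48h, with intervals of 39.8 to 65.3, 33.0 to 58.5 and 31.4 to 56.7. Of 597 contacts outside the window in the same distance range, 27.8%, 19.6% and 21.9% were, with upper limits of 31.5%, 23.0% and 25.4%. The intervals do not overlap at 1h, 12h or 48h. Many of the 55 share a fragment and are not independent.

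**Figure D3:**
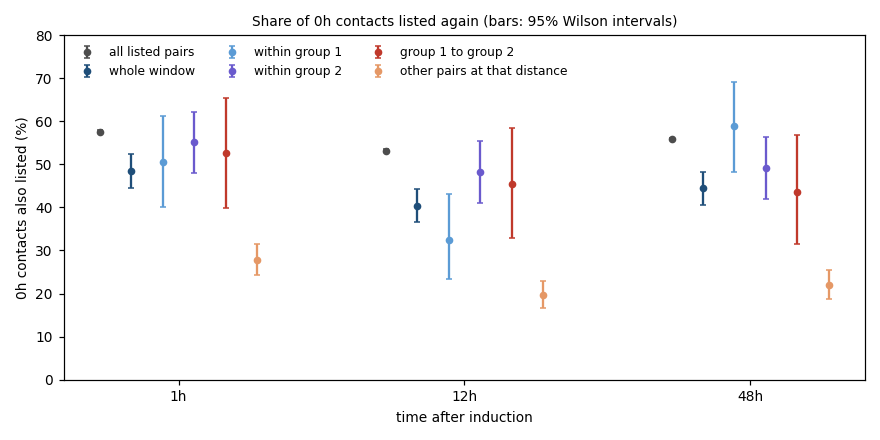
Share of 0h contacts also listed at each later time (y axis, percent) for 6 sets of contacts, with 95% Wilson intervals. Contacts between the groups (red) lie above other contacts of that distance (orange) at all 3 times, and the whole window (dark blue) lies below all listed contacts (dark grey).

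All 24 baits with a Hist1 start had fewer contacts at 12h than at 0h, against 40.8% of the 18175 baits of the series, and 22 had fewer at 1h, against 39.0%. By RefSeq starts there are 26 such baits, of which 24, 26 and 21 had fewer contacts at 1h, 12h and 48h than at 0h. The medians of the 24 were 12, 8, 5 and 13.5 contacts. From 12h to 48h, 15 of the 24 had more contacts and 6 had fewer, against 42.6% and 40.4% of all baits. At 48h, 19 had fewer than at 0h, against 40.1%, and 5 had more, against 43.3%. The other 30 baits of the window had medians of 6, 5, 3 and 2.5, and 16 had fewer at 12h than at 0h while 8 had more, against 42.3% with more in the series. Baits that touch each other share counts.

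Single baits differed along the cluster. The bait of Hist1h4h had the most contacts, with 64, 61, 58 and 55. The bait of Hist1h2ai and Hist1h2bl had 43, 44, 33 and 38, and that of Hist1h2ae had 44, 20, 24 and 20. In group 1 the bait of Hist1h2ag and Hist1h4i had 26, 18, 9 and 23 contacts, and that of the zinc finger gene Zfp184 had 22, 18, 9 and 20. Both were lowest at 12h. In group 2 the bait of the solute carrier gene Slc17a2 had 23, 23, 16 and 13.

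In the middle, the bait of Abt1, an activator of basal transcription, had 29, 35, 20 and 15 contacts. The bait of the zinc finger gene Zfp322a had 17, 14, 13 and 9, and that of the butyrophilin gene Btn1a1 had 17, 20, 17 and 18. The first 2 ended lowest at 48h. At the edges the baits of Slc17a3 and Slc17a1 had 12, 13, 18 and 10 and 6, 4, 14 and 9 contacts, highest at 12h. The bait of the odorant receptor gene Olfr11 had 0, 1, 0 and 2.

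**Figure D4:**
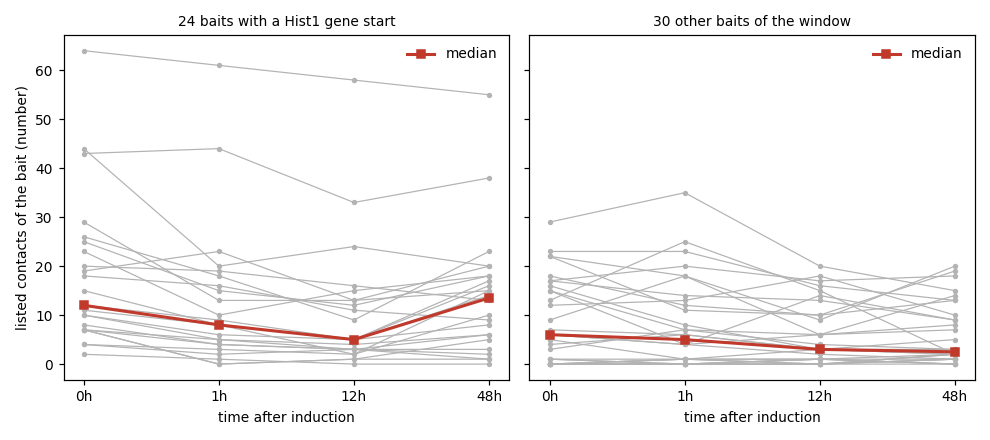
Number of listed contacts (y axis) of each bait at each time after induction (x axis), with 1 grey line for each bait and the median in red. Left, the 24 baits with a Hist1 start, with medians of 12, 8, 5 and 13.5. Right, the 30 other baits, with medians of 6, 5, 3 and 2.5.

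Read pairs were available for the induced times and were compared for contacts listed at both. From 1h to 48h the median log2 ratio was 0.00 over 227 window contacts, against -0.18 over 73078 in the series. Within group 2 it was 0.34, with a median of 33 read pairs against 45, and 57 of 71 contacts had more at 48h. Within group 1 it was 0.30 over 32 contacts, and between the groups it was -0.08 over 22. Among contacts listed at both times, those within group 2 thus mostly had more read pairs at 48h, and those of the series mostly fewer. Summed over each whole list, the series held 3548327 read pairs at 1h and 3662329 at 48h. The sets are not matched for distance, with medians at 48h of 39.6 kb within group 2 and 177 kb in the series. A gain of at least 2-fold was seen in 8 window contacts (3.52%), against 1.77% of all, and a loss of that size in 3 (1.32%), against 5.4%. From 12h to 48h, 13 contacts (6.50%) gained 2-fold, against 4.94%, and 1 (0.50%) lost, against 0.35%, while from 1h to 12h, 0 gained, against 0.0486%, and 3 (1.27%) lost, against 6.12%.

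Among contacts that do not join the groups, several strong ones joined Hist1 baits. The bait of Hist1h1e and Hist1h2be met that of Hist1h2ac and Hist1h2bc over 66.6 kb, with a score of 34.79 and 50, 36 and 76 read pairs. It met that of Hist1h1t, the testis H1 gene, with a score of 31.42 and 18, 22 and 37. Both had most read pairs at 48h. In group 1 the bait of Hist1h2ai and Hist1h2bl met that of Hist1h1b and Hist1h3i over 66.1 kb, with a score of 30.92 and 32, 30 and 27 read pairs. The bait of Hist1h4h met a fragment with 5 tRNA genes over 92.9 kb, with a score of 35.63 and 31, 23 and 32 read pairs. Its 0h score was the highest among contacts listed at all 4 times that do not join the groups. The contacts named here were chosen after their values were seen.

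Contacts out of the window reached mostly to its upper side. Above it there were 138, 110, 89 and 98, and below it 48, 45, 29 and 45. The outside bait with most was that of Carmil1, a regulator of actin capping (chr13:24280554-24281661), with 24, 20, 14 and 20. Next were those of Gm11339 (16, 16, 11 and 21), of Scgn, a calcium-binding protein (9, 5, 8 and 9), of Trim27, a tripartite motif protein (7, 6, 3 and 3), and of the histone pair Hist1h2aa and Hist1h2ba (6, 7, 3 and 3). Trim27, below the window, met group 1 in 12 of its 14 contacts, and the other 4 met group 2 and the edge alone.

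There were 9, 6, 6 and 3 contacts with another chromosome, or 14 in all. A fragment at chr13:23355484-23355899 met the bait of Pcdh20, a protocadherin gene of chromosome 14, at all 4 times, with a score of 24.58 and 4, 4 and 3 read pairs. The fragment beside it did so too, with a score of 10.79 and 3, 3 and 4. Another 11 contacts joined the bait of Hist1h1t to chromosome 4, none at all 4 times. At 0h, 3 of these had an equal score of 16.35 and 3 an equal score of 9.2, and the rest had few read pairs (3 or 4) or 1 score of 5.06. Of the partner fragments 1 is masked as repeats over 90.7% of its length.

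RNA from the Hist1 genes was lower at 12h and 48h. Of 52 tested, limma called 47 lower and 0 higher at 12h, and 49 lower and 1 higher at 48h (adjusted p under 0.05 over 16415 genes and a change beyond 1 on the log2(TPM + 0.1) scale). At 1h limma called 0 in either direction, and 0 had an unadjusted p under 0.05. For 12h higher this was 0 as well. Over all genes the share called lower was 1.08%, 5.75% and 23.1% at the 3 times and the share called higher 16.7%, 17.7% and 13.5%. The median log2 fold change of the 52 was -2 at 12h and -5.22 at 48h, where all genes were at 0.34 and -0.18. At 1h it was 0.28, below the 0.59 of all genes, and with median-of-ratios scaling it was -0.38 against 0.01. In such bulk samples, fewer cells that express these genes and less RNA per cell cannot be told apart.

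Of the 5 genes not called at 12h, Hist1h2ah and Hist1h4b had log2 fold changes of -2.05 and -1.57, and Hist1h2ao was listed at 0 TPM up to that time. Hist1h2aj, the unprocessed pseudogene, and Hist1h4m were not called at 48h either, with changes of -3.30 and -1.76 and SEs of 3.19 and 2.39. Hist1h2ao was the gene called higher at 48h, with 2.47, 0.56 and 0 TPM in its libraries, and it was called in 1 of the 12 fits that left out a library. Near-identical histone genes share reads that the counting had to divide, so single levels are less certain than sums.

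All 5 families were lower at 12h and 48h, by different amounts. The summed TPM of the 13 H2A genes was 912 ± 29.2, 1020 ± 106, 210 ± 50.9 and 21.4 ± 12.1 (SD, n = 3). For the 14 H2B genes it was 931 ± 75, 1180 ± 123, 250 ± 98.2 and 30 ± 21.9, and for the 9 H3 genes 1030 ± 62.9, 1240 ± 133, 230 ± 57.9 and 18.1 ± 8.73. In these the 48h sum was below all 12h libraries. For the 11 H4 genes it was 1210 ± 117, 1500 ± 159, 298 ± 96.9 and 59.7 ± 38.9, and for the 6 H1 genes 337 ± 4.78, 388 ± 19.6, 92.8 ± 21.4 and 28.2 ± 11.4. All 12h libraries lay below all 0h libraries, and all 48h libraries below all 12h libraries, in every family. The log2 difference of 48h from 0h was -3.66 for H1, -5.55 for H2A, -5.2 for H2B, -5.93 for H3 and -4.53 for H4. Each had an exact two-sided permutation p of 0.1, the smallest that 3 against 3 libraries allow. At 1h the differences were between 0.16 and 0.34, and all turned negative with median-of-ratios scaling.

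**Figure D5:**
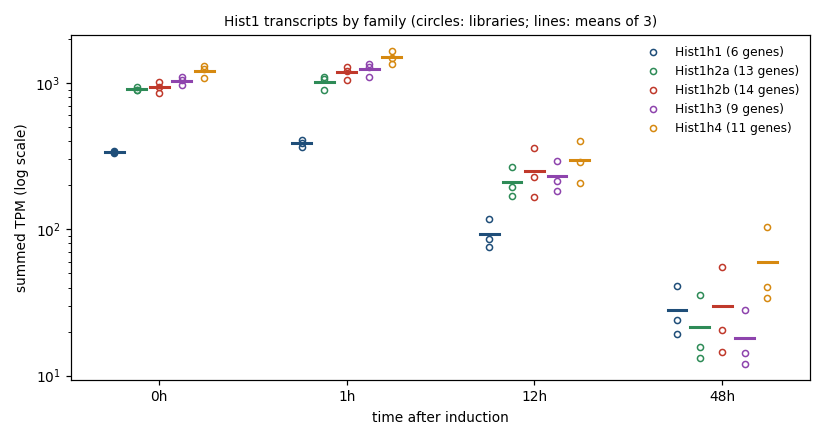
Summed TPM of each histone family (y axis, log scale) in every RNA-seq library (circles) at each time after induction (x axis), with the mean of 3 libraries as a line. In each family the 48h libraries lie below the 12h libraries and these below the 0h libraries.

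Both groups were lower. In group 1, 20 of 24 genes were called lower at 12h and 21 at 48h, and in group 2, 27 and 28 of 28. The summed TPM of group 1 was 2510 ± 109 at 0h and 78.4 ± 52.1 at 48h (SD, n = 3), and that of group 2 was 1910 ± 169 and 79 ± 41.1. At 48h, contacts within group 1 stood at 0.855 times, within group 2 at 0.689 times and in the whole window at 0.741 times their 0h number.

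Hist1h4k, an H4 gene of group 1, had 279, 345 and 311 TPM in the 0h libraries. It had 331, 357 and 420 at 1h, 34.5, 64.9 and 86.9 at 12h, and 5.02, 4.13 and 22.5 at 48h. The groups of 12h and 48h did not overlap with 0h, and the log2 fold changes were -2.42 and -5.30 (SE 0.53 each), with limma adjusted p of 0.00517 and 8.51e-06. The H3 gene Hist1h3h had 234, 250 and 308 TPM at 0h, 31.8, 50.5 and 49.9 at 12h, and 0, 1.43 and 2.61 at 48h. It fell by 2.60 and 8.46 on the log2 scale (SE 0.89 each), with limma adjusted p of 0.0462 and 1.35e-05. Hist1h1a, an H1 gene of group 2, varied little between libraries, with 146, 152 and 140 TPM at 0h, 17.6, 18.3 and 19.7 at 12h, and 4.59, 4.46 and 5.39 at 48h. It fell by 2.97 and 4.90 (SE 0.13 each), with limma adjusted p of 5.2e-08 and 3.32e-10.

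Hist1h2bl, the H2B gene on the bait at the outer end of group 1, had 113, 111 and 130 TPM at 0h, 16.9, 28.4 and 41.6 at 12h, and 0.51, 1.33 and 3.18 at 48h, and was called at both times. The H2A gene Hist1h2ah had 192, 176 and 176 TPM at 0h, 37.9, 61.3 and 35.7 at 12h, and 0, 0.05 and 5.02 at 48h. It was called at 48h alone, with a limma adjusted p of 4.86e-05 there and 0.183 at 12h. The second genes of the families, Hist1h1b, Hist1h2ap, Hist1h2bg, Hist1h3i and Hist1h4n, were called lower at both times. Their log2 fold changes lay between -1.99 and -1.76 at 12h, and between -6.16 and -4.03 at 48h. On the bait with the most contacts, Hist1h4h had means of 146 TPM at 0h and 5.09 at 48h, Hist1h3g had 50.4 and 0.38, and Hist1h2af had 87.9 and was then listed at 0 in each 48h library.

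Most other genes of the window were silent at all times, with 96 of 149 listed at 0 throughout and 28 tested. The counts that follow are near or below the shares over all genes for higher calls (16.7% at 1h, 17.7% at 12h and 13.5% at 48h), and those shares for lower calls were 5.75% at 12h and 23.1% at 48h. At 1h 4 were higher, Zfp322a (0.397 to 1.44 TPM), Vmn1r197, Vmn1r207-ps and Vmn1r218, and with median-of-ratios scaling 0 were. At 12h 4930558J22Rik and Gm44390 were lower and Gm44297 and Vmn1r207-ps higher. At 48h 12 were lower and 3 higher, the latter Gm44346, Vmn1r197 and Vmn1r207-ps. Of the 12, 11 are annotated as miRNA genes, and 10 of these lie on Hist1 genes. The level of 9 (Gm19658, Gm44314, Gm44350, Gm44359, Gm44367, Gm44394, Gm44466, Gm44484 and Gm44486) was the same in every library, so their reads cannot be told apart from each other, and Gm44454 and Gm44390 were the other 2. Of the pseudogenes, Gm11331 was at means of 0.657 TPM at 0h and 2.28 at 48h and was not called. The remaining lower gene, 4930558J22Rik, is antisense and overlaps Hist1h4b, and it had 2.64 ± 0.325 TPM before induction, 0.653 ± 0.299 at 12h and, in the 48h libraries, 0.0933 ± 0.0862 (SD, n = 3). Use of strand in the counting is not given in the sources used here, so it cannot be told apart from Hist1h4b.

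Some promoters with many contacts gave hardly any RNA. Btn2a2 was listed at 0 in all libraries but 1 and Zfp184 reached at most 0.27 TPM, and the mean of Abt1 was at most 0.413 TPM. TPM are shares of a library, of which the 2 most abundant genes took 70.3% to 82.9%. These promoters were chosen after their values were seen, and how common such low levels are among all baits was not tested.

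Factors of the histone locus body and of histone mRNA were called lower mainly at 48h. Of 17 listed, 16 were tested, and limma called 0 lower and 3 higher at 1h, 4 and 1 at 12h, and 11 and 1 at 48h. Over all genes 16.7% were called higher at 1h, 5.75% lower at 12h and 23.1% lower at 48h, so the count at 1h is near that of all genes. The median log2 fold changes of the factors were 0.67, -0.43 and -1.31, where all genes were at 0.59, 0.34 and -0.18. Slbp, which binds the histone stem-loop, had means of 12.5, 24.6, 4.77 and 3.58 TPM and was lower at 12h and 48h. Ccne2, a cyclin that drives entry into S phase, had 3.60, 10.4, 0.62 and 0.05, higher at 1h and lower after that. Its kinase Cdk2 and Ccne1 fell by 2.19 and 2.75 on the log2 scale at 48h. Casp8ap2, Lsm11, Eri1, Cpsf2, Cpsf3, Sympk and Cstf2, which serve histone gene expression or mRNA 3′ ends, were also lower at 48h, with log2 fold changes of -1.09 to -2.57, and Cstf2 and Cdk2 were already lower at 12h. Mif4gd, which acts in histone mRNA translation, was higher at all 3 times, and Lsm10, part of the U7 particle, at 1h. Npat, the coactivator of histone genes, had means of 1.52 TPM at 0h and 0.92 at 48h and was not called (limma adjusted p 0.124).

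Macrophage markers moved with time in the same libraries. The 6 macrophage markers, Csf1r among them, summed to 3.34 to 4.61 TPM at 0h, 4.5 to 6.56 at 1h, 187 to 272 at 12h and 152 to 202 at 48h. The 3 erythroid and 3 fibroblast markers were at 0 in every library, and the 3 T cell markers summed to at most 0.09 TPM. The part of this shift in the histone values was not tested. The 2 most abundant genes took 70.3% to 82.9% of the TPM of a library.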

How the data were processed

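PCHi-C reads were mapped to mm10 by the authors, who merged the 2 replicates of each time and called contacts with CHiCAGO. The deposited 0h list holds CHiCAGO scores of at least 5. The other deposited lists hold unnamed whole numbers, read here as counts of read pairs. In the 0h list 0 pairs appear in both directions, against 8082, 9184 and 8517 at 1h, 12h and 48h. Comparisons of 0h with later times thus set lists of unlike form side by side. For RNA-seq the authors used Trim Galore 0.6.2 and HISAT2 2.1.0 (their processing notes) with RSEM and deposited TPM, which keep no depth. Hi-C was not used here.

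Pairs were counted once whatever the direction. Members and lists were chosen with earlier results of these data known. Named were 3 baits a segment and 5 outside fragments with most contacts, the 5 contacts between the groups at all 4 times with the highest score, 2 genes a family by TPM at 0h, other window genes averaging at least 1 TPM, and called factors. Baits, contacts and genes outside this rule are given as chosen after their values were seen, as are the genes on the baits named and the other called window genes.

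Log2(TPM + 0.1) of genes averaging at least 0.1 TPM went into 1 limma model (limma 3.58.1, R 4.3.3, eBayes with a trend) of all 12 libraries, against 0h. The model was tested on simulated data. P-values measure the spread between samples labelled as biological replicates. Contact shares carry Wilson intervals. The sum of 1 marker list is not reported here. Python 3.11.15, pandas 2.3.3, SciPy 1.17.1 and pysam 0.24.0 were used. Alternatives varied the window edge, lists, margin, pseudocount, filter, scaling, thresholds, replicate block and libraries.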

Additional observations from a re-analysis of the deposited data

How the results depend on the processing

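Of 451 values under alternative settings, 374 stayed close to the value reported, 71 moved and 6 reversed. Stricter lists (0h score of at least 10, and the same share of each later list by read pairs) held 158, 81, 69 and 82 window contacts. Of the 0h contacts then left, 23.4%, 22.8% and 29.1% were listed later, and the share between the groups was 12.7% at 0h and 0% after that. The score used at 0h allows for distance and the read pairs used later do not. Contacts between the groups had at most 11, 8 and 13 read pairs at 1h, 12h and 48h. The stricter 0h and later lists therefore cannot be compared for long contacts. Accepting contacts within 10 kb gave 89.2%, 81.7% and 87% of the 0h window contacts listed again, with no series share beside them. A margin of 0 kb, which leaves the baits of Hist1h4h and Btn2a2 outside group 2, gave shares between the groups of 3.49%, 2.51%, 1.79% and 5.57%. The window edge, contacts on 1 chromosome alone and a margin of 100 kb moved none of these beyond its interval.

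The number of Hist1 genes lower at 48h was 49 under every alternative run. At 12h the 47 became 25 with a log2 fold change beyond 2, 33 with a pseudocount of 0.01, and 32 to 49 when a library was left out. The 1 Hist1 gene higher at 48h became 0 with a pseudocount of 1 or 0.01, no filter, a mean TPM of at least 1 or the 6 libraries compared, and 0 to 1 when a library was left out (1 without 48h replicate 3). Other window genes higher at 1h (4) became 0 with a pseudocount of 1, a mean TPM of at least 1, median-of-ratios scaling or a log2 fold change beyond 2, 2 with 6 libraries, and 2 to 5 when a library was left out (2 without 0h replicate 3 or 1h replicate 2). Those lower at 12h (2) became 1 with a pseudocount of 0.01 or no filter, 0 with a log2 fold change beyond 2, and 1 to 10 when a library was left out (10 without 12h replicate 2, 1 without 0h replicate 2 or 3). Those higher at 12h (2) became 0 with a pseudocount of 1, no filter, a mean TPM of at least 1, scaling or 6 libraries, 1 with a pseudocount of 0.01, a log2 fold change beyond 2 or the replicate block, and 0 to 3 when a library was left out, whichever group it came from. Those higher at 48h (3) became 1 with a pseudocount of 1, a mean TPM of at least 1 or a log2 fold change beyond 2, and 1 to 4 when a library was left out (1 without 0h replicate 3).

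Median-of-ratios scaling, added for the sums after seeing the data, gave log2 differences at 1h of -0.46 for H1, -0.5 for H2A, -0.32 for H2B, -0.4 for H3, -0.36 for H4 and -0.4 for all Hist1 genes. RefSeq in place of GENCODE starts, also added after seeing the data, gave 96, 54, 46 and 83 contacts with Hist1 starts on both fragments. The causes were not tested. Same-numbered replicates correlated between -0.01 and 0.26, with 4 of 9 closest to their own number. Replicate 3 was at 0.26 for 1h and for 48h with 0h, and at 0.07 for 12h. At each time its library had the most genes above 0 and the highest share of TPM from Hist1 genes. That share was 0.468%, 0.57%, 0.144% and 0.0264% in replicate 3. A difference that goes with the replicate number is thus seen for replicate 3, and its source was not tested. With the replicate block 48 Hist1 genes were lower at 12h and 49 at 48h. Contacts rest on 1 list a time, so no replicate spread is known.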
